A study of Mus musculus with 6 samples.

Results

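Respiratory complex I is assembled mostly from nuclear-encoded proteins, and the genes described here are the protein-coding mouse genes whose symbols begin with Ndufa, Ndufb, Ndufc, Ndufs, Ndufv or Ndufaf. They numbered 46 of the 25690 gene symbols in the count tables, 38 named as subunits and 8 as assembly factors. Immature NK cells of the CD27SP stage (NK1.1+ CD27+ CD11b-) were sorted from mouse bone marrow, and their polyadenylated RNA was sequenced to ask what loss of the transcription factor Myc does to the transcriptome. The 3 control libraries (WT) came from Ncr1cre Myc wt/wt mice and the 3 Myc-deficient libraries (KO) from Ncr1cre Myc fl/fl mice, carrying replicate numbers 1, 2 and 4 in both genotypes. All mice were on a C57BL/6 background and were sex- and age-matched, though no age is given for single libraries. Both genotypes therefore carried the Cre recombinase, which is expressed from the Ncr1 locus in cells that have begun to express this NK receptor, so deletion starts within the NK lineage and may miss cells that have not yet switched Ncr1 on. Nothing states whether each library came from a single mouse or from pooled mice, so p-values measure the spread between these 6 libraries.

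Complex I (NADH:ubiquinone oxidoreductase) is the entry point of electrons from NADH into the mitochondrial respiratory chain, and it pumps protons across the inner membrane while it passes them on to ubiquinone. It is L-shaped. A hydrophilic arm in the matrix carries the flavin and the iron-sulfur clusters, a membrane arm carries the proton channels, and accessory subunits surround a conserved core whose membrane part is encoded by mitochondrial DNA. Assembly factors bind intermediates, modify core subunits and leave before the enzyme is finished. NK cells raise respiration and glycolysis when cytokines activate them.

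The deleted gene shows whether the labels hold. Myc reached 200.5, 183.4 and 164.3 normalised CPM (estimated counts relative to the TMM-scaled library total) in WT replicates 1, 2 and 4, and 61.5, 64.6 and 76.5 CPM in the KO replicates. Every KO library lay well below every WT library, with a log2 fold change of -1.44 (SE 0.15, edgeR's quasi-likelihood test, adjusted p = 0.00189). The libraries held 54550907 to 64962491 estimated counts, apart from WT replicate 1 with 8101219, in which 11327 genes had at least 10 counts against 15245 to 15664 in the other libraries. The NK marker list (11 genes, among them Ncr1, Klrb1c, Eomes and Gzma) summed to 14881 to 15485 CPM in WT and 16956 to 17705 CPM in KO, with 0 members past adjusted p of 0.05 by the same test, and mature NK genes (5) to 133.7 to 209.7 and 130.3 to 139.9 CPM with 2 lower. Marker lists of other bone marrow cells differed more. The basophil and mast cell list summed to 15.1 to 18.5 CPM in WT and 121.6 to 334.2 CPM in KO (8 of 8 higher), the neutrophil and progenitor list to 85.3 to 140.3 and 537.9 to 897 CPM (6 of 10 higher), the erythroid list to 43.8 to 279.8 and 543.6 to 1149 CPM (8 of 8 higher), the monocyte list to 1659 to 1866 and 2067 to 2371 CPM (3 of 6 higher) and the dendritic cell list to 8.07 to 17.4 and 35.2 to 39.8 CPM (2 of 5 higher). The B cell list (7 genes, 4.5 to 8.64 and 11.5 to 15.6 CPM) and the T cell list (6 genes, 226.7 to 473.5 and 236.6 to 317.2 CPM) had 0 members past that limit. Fcgr1 of the monocyte list and Vpreb1 of the B cell list had 0 counts in the WT libraries. The part of these other transcripts in the values of the complex I genes was not tested, and in bulk RNA fewer cells of a type cannot be told apart from less RNA per cell.

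Complex I subunit mRNAs lay slightly below the control level in Myc-deficient cells, almost as a group, but no single subunit passed the test. Of the 38 subunits, 37 had enough counts to be tested, and 36 of these had a fitted log2 fold change below 0, where 48.5% of the 15474 tested genes did. Their median was -0.24, against 0.01 for all tested genes, and the values ran from -0.59 (Ndufa13) to 0.02 (Ndufv3). With a trend on transcript length removed, the median was -0.10 and 29 of 37 lay below 0. With edgeR's quasi-likelihood test and Benjamini-Hochberg adjustment, 0 subunits passed an adjusted p of 0.01 with a log2 fold change of at least 0.5, a rule met by 0.872% of tested genes in the lower and 1.28% in the higher direction. At an adjusted p of 0.05 without a fold limit the count was again 0, with 3.38% of genes lower and 4.45% higher. Unadjusted p fell under 0.05 for 7 subunits, all lower, where 10.2% of all genes were lower by this rule. The other tools run on the same table gave 4 subunits at an adjusted p of 0.05 with DESeq2 (Ndufa9, Ndufab1, Ndufb5 and Ndufc2), all lower, where DESeq2 called 5.81% of all genes lower, and 0 with limma-trend, which called 3.04% lower. Every KO library was below every WT library for 15 of the 37 subunits, where 15.1% of all genes showed such a separation, and the reverse arrangement, found in 16.2% of all genes, occurred for 0 subunits.

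**Figure D1:**
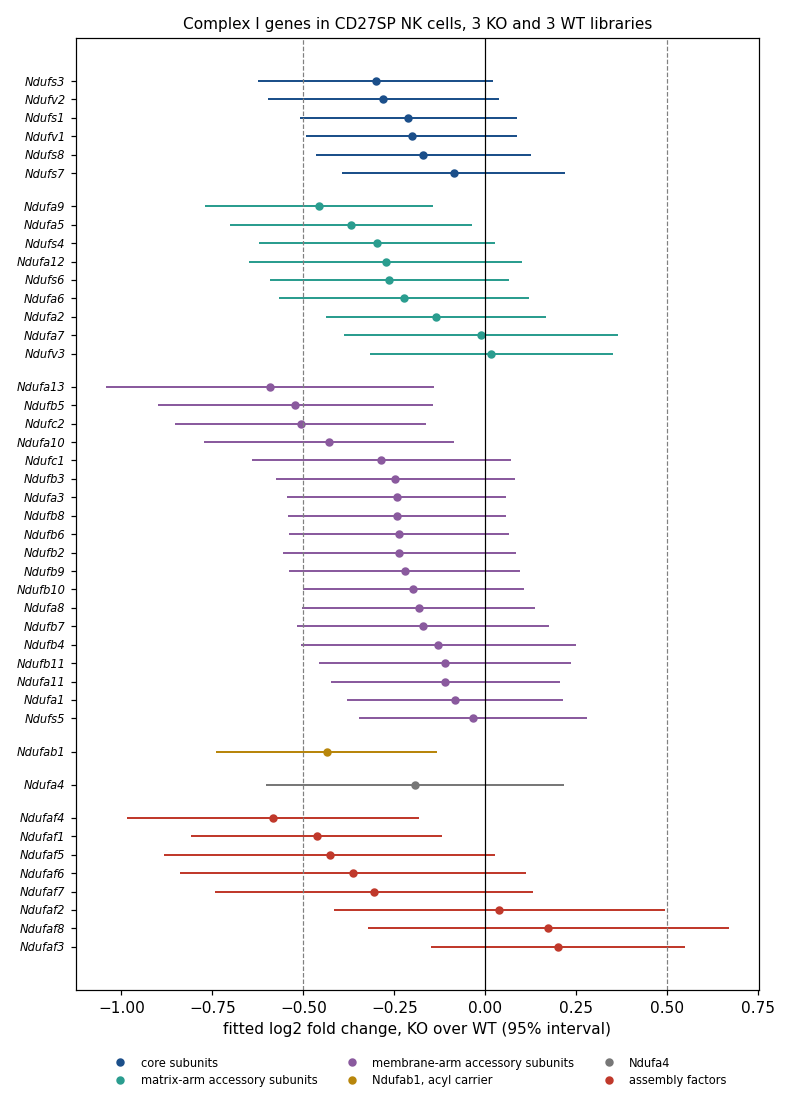
Fitted log2 fold changes of single tested complex I genes, KO over WT, with 95% intervals from 3 libraries per genotype. Colours give the role of the protein, the solid line marks no difference and the dashed lines a log2 fold change of 0.5 in either direction. The subunits sit close together, between -0.59 and 0.02, and most of their intervals hold 0, while the assembly factors spread from -0.58 to 0.20.

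The 8 assembly factors were all tested. The fitted value was below 0 for 5 of them, where 48.5% of all genes lay below 0, and above 0 for 3. The median was -0.33 and the range -0.58 (Ndufaf4) to 0.20 (Ndufaf3). Every KO library was below every WT library for 3 of the 8 (15.1% of all genes) and above for 1 (16.2% of all genes). The edgeR test called 0 assembly factors by either rule, limma-trend 0 and DESeq2 2 (Ndufaf1 and Ndufaf4) at an adjusted p of 0.05, beside 5.81% of all genes called lower by DESeq2. Unadjusted p fell under 0.05 for the same 2 genes, beside 10.2% of all genes in the lower direction.

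Summed over all members, the subunits took 0.414%, 0.466% and 0.469% of the counts in WT replicates 1, 2 and 4, and 0.376%, 0.410% and 0.356% in the KO replicates. The groups did not overlap, but WT replicate 1, the shallow library, lay only just above KO replicate 2. The means were 0.450% ± 0.0310 in WT and 0.381% ± 0.0272 in KO (SD, n = 3). Assembly factors took 0.0225%, 0.0221% and 0.0230% of WT counts and 0.0194%, 0.0210% and 0.0182% of KO counts, again without overlap. Measured as a share of TPM (transcript levels divided by length and scaled to a fixed total), the subunits held 1.16% ± 0.109 in WT and 1.05% ± 0.0616 in KO (SD, n = 3), and here the groups overlapped, since WT replicate 1 held 1.03% and KO replicate 2 held 1.12%.

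Promoter sequences were examined because Myc binds the E-box letters CACGTG with its partner Max, and because the factors NRF1 and GABP (an ETS factor) are long known to bind promoters of respiratory chain genes. RefSeq promoters (GRCm38.p6, 250 bases before to 50 bases after the transcript start) were found for 40 of the 46 members, in all 42 promoters. CACGTG, which reads the same on both strands, stood in 3 of the 42 member promoters (7.14%), against 7.84% of the promoters of all protein-coding genes and 7.15% of all promoters. These 3 promoters belonged to 2 genes, Ndufa7 and Ndufv1. GCGCATG, letters of the NRF1 motif searched on both strands, stood in 16.7% of member promoters, 4.8% of protein-coding promoters and 3.91% of all promoters. CCGGAAG, letters bound by ETS factors and likewise searched on both strands, stood in 14.3%, 11.6% and 8.86% of them. The stretches below show both E-box genes and the promoters of the 2 assembly factors with the lowest fitted values, with the searched letters in capitals and all sequences 5′ to 3′ on the gene's strand. Ndufa7 is at chr17:33824470-33824535 (plus strand), Ndufv1 at chr19:4012889-4012954 (minus), Ndufaf4 at chr4:24897940-24898009 (plus) and Ndufaf1 at chr2:119662835-119662882 (minus).
Ndufa7: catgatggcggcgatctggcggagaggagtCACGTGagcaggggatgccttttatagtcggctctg
Ndufv1: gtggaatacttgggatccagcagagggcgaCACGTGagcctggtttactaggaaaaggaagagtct
Ndufaf4: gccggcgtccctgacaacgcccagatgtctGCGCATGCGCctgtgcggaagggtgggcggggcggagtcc
Ndufaf1: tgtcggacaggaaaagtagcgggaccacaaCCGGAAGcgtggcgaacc
In Ndufaf4 the capitals hold GCGCATG and, overlapping it on the other strand, the same letters again, 104 to 113 bases before the start. The E-box lay 67 to 72 bases before the start in the Ndufa7 promoter shown, 140 to 145 bases before a second, later start of Ndufa7 whose promoter holds the same site, and 164 to 169 bases before it in Ndufv1. The subunits with the E-box letters had fitted log2 fold changes of -0.01 (Ndufa7) and -0.20 (Ndufv1), and the 31 tested subunits whose promoter lacked them had a median of -0.24 (range -0.59 to 0.02). A match of letters is a description of the window and shows no binding.

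The 7 nuclear-encoded core subunits, which carry the flavin and the iron-sulfur clusters, all had fitted values below 0, with a median of -0.21 and a range of -0.30 to -0.09. None was called (lowest adjusted p = 0.251, Ndufs3, edgeR's quasi-likelihood test), and 4 of 7 had every KO library below every WT library (15.1% of all genes). Ndufs3, a core subunit of the module that leads to ubiquinone, reached 97.4, 79.3 and 84.9 CPM in WT replicates 1, 2 and 4 and 71.3, 77.4 and 63.4 CPM in the KO replicates. KO replicate 2 came within about 2 CPM of WT replicate 2, and the other KO libraries lay lower. The log2 fold change was -0.30 (SE 0.14, 95% interval -0.62 to 0.02). Ndufv2, an iron-sulfur subunit beside the NADH site, had 158.8, 169.8 and 183.9 CPM in WT and 139.2, 156.1 and 127.4 CPM in KO. Its groups were also separate, by less than 3 CPM, with a log2 fold change of -0.28 (SE 0.14, interval -0.60 to 0.03).

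Ndufs1, the largest core subunit of the matrix arm and an iron-sulfur protein, was separate in the same manner, with 161.6, 157.1 and 147.2 CPM in WT and 126.4, 141.4 and 134.6 CPM in KO. Its log2 fold change was -0.21 (SE 0.13, interval -0.51 to 0.08). Ndufv1, which binds NADH and the flavin, had 112.9, 138.8 and 135.4 CPM in WT and 99.3, 119.6 and 117.2 CPM in KO. Here WT replicate 1 fell below 2 of the KO libraries. Its log2 fold change was -0.20 (SE 0.13, interval -0.49 to 0.08). Ndufs8, which holds a pair of iron-sulfur clusters, ran from 123.8 to 152.8 CPM in WT and from 115.5 to 140.2 CPM in KO, and Ndufs7, which holds the last cluster before ubiquinone, from 104.7 to 148.8 and from 113.0 to 131.7 CPM. Both overlapped between genotypes because WT replicate 1 was the lowest WT library. Their intervals, -0.46 to 0.12 and -0.39 to 0.22, leave room for a small difference in either direction.

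**Figure D2:**
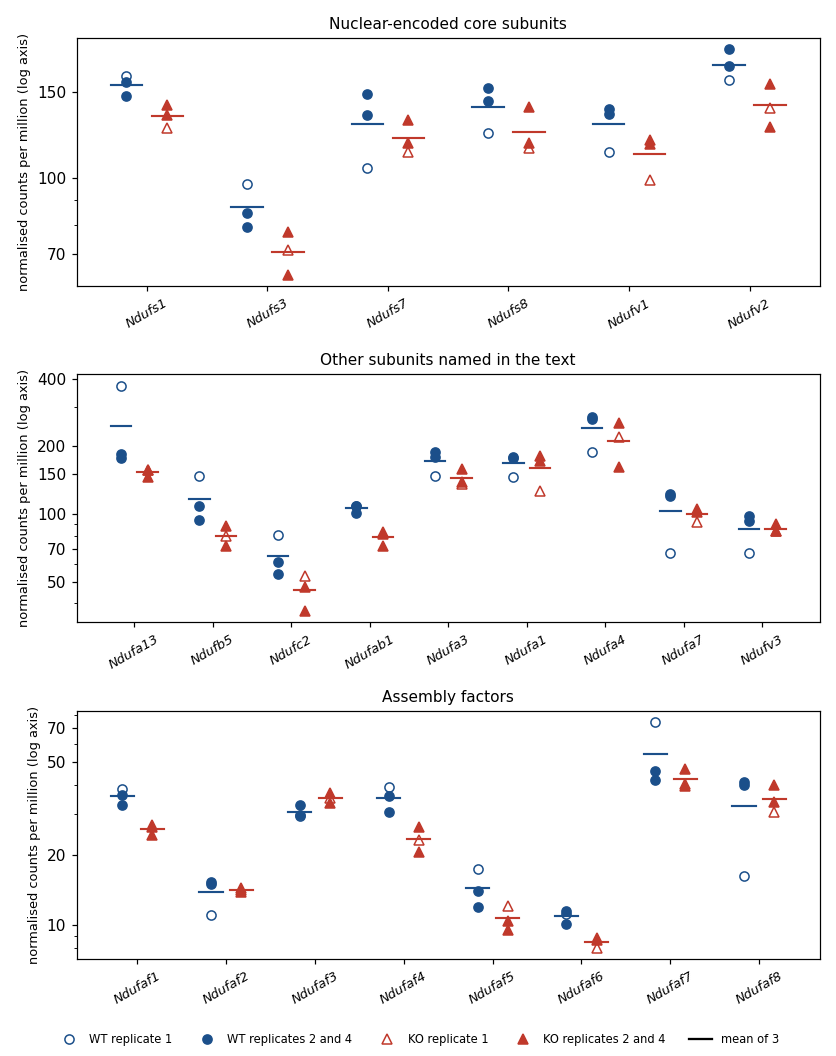
Normalised CPM (log axis) of 6 core subunits, 9 other subunits and 8 assembly factors in each of the 6 libraries. Circles are WT and triangles KO, open symbols are replicate 1 and short lines are means of 3. WT replicate 1 stands away from the other WT libraries in both directions, high for Ndufa13 (372.7 CPM) and low for Ndufa7 (67.3 CPM), and the KO libraries of these 2 genes lie close to each other.

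Among the accessory subunits, 8 of the 9 of the matrix arm (median -0.26) and all 19 tested ones of the membrane arm (median -0.24) had fitted values below 0. Every KO library was below every WT library for 3 and 7 of them, beside 15.1% of all genes. The lowest fitted value of any subunit belonged to Ndufa13, a membrane-arm subunit also known as GRIM-19 (ENSMUSG00000036199.9, chr8:69894180-69902558, minus strand, GRCm38). It had 372.7, 178.4 and 185.8 CPM in WT replicates 1, 2 and 4 and 156.3, 156.7 and 146.6 CPM in KO. The groups were separate, but WT replicate 1 was at roughly double the level of the other controls. The log2 fold change of -0.59 (SE 0.20, interval -1.04 to -0.14, adjusted p = 0.109 with edgeR's quasi-likelihood test) became -0.27 when replicate 1 of both genotypes was left out. Ndufb5, also of the membrane arm, had 147.7, 94.2 and 108.2 CPM in WT and 79.8, 88.7 and 71.7 CPM in KO. Again WT replicate 1 was the highest, and the log2 fold change of -0.52 (SE 0.17, adjusted p = 0.0930 with edgeR) was -0.34 without replicate 1.

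Ndufc2, a small membrane-arm subunit (ENSMUSG00000030647.8, chr7:97400003-97407802, plus strand), had the smallest adjusted p among the subunits. It had 80.6, 53.9 and 61.1 CPM in WT and 52.9, 47.2 and 37.0 CPM in KO. KO replicate 1 and WT replicate 2 were almost level, and the log2 fold change was -0.51 (SE 0.15, interval -0.85 to -0.17, adjusted p = 0.0768 with edgeR). Ndufab1, the mitochondrial acyl carrier protein, serves fatty acid and lipoic acid synthesis besides its place in complex I. It had 109.0, 101.4 and 109.1 CPM in WT and 82.9, 81.7 and 72.0 CPM in KO (ENSMUSG00000030869.11, chr7:122085403-122101886, minus strand). The groups were well separated, and WT replicate 1 did not stand apart here. The log2 fold change was -0.44 (SE 0.13, interval -0.74 to -0.14, adjusted p = 0.0833 with edgeR), and it kept between -0.49 and -0.37 when each replicate number was left out in turn. Without the replicate number in the fit the adjusted p of Ndufab1 was 0.0410, within a range of 0.0297 (DESeq2) to 0.356 (without replicate 4) over 19 alternatives. Ndufa9, an accessory subunit of the matrix arm chosen after its values were seen, had 218.9, 178.3 and 179.3 CPM in WT and 143.1, 151.3 and 124.7 CPM in KO, with a log2 fold change of -0.46 (SE 0.14, adjusted p = 0.0780 with edgeR).

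At the other end of the accessory subunits stood Ndufv3, a small subunit at the NADH-binding tip, and Ndufa7 of the matrix arm. Ndufv3 had 66.9, 93.2 and 97.9 CPM in WT and 83.9, 90.3 and 84.2 CPM in KO, a log2 fold change of 0.02 (SE 0.15, interval -0.31 to 0.35). Ndufa7 had 67.3, 120.3 and 123.3 CPM in WT and 92.5, 105.2 and 101.6 CPM in KO, a log2 fold change of -0.01 (SE 0.17, interval -0.39 to 0.36). For both, all KO libraries lay between WT replicate 1 and the other controls, and without replicate 1 the fitted values were -0.13 and -0.24. Ndufa4, counted today as a subunit of complex IV although its symbol keeps the older assignment, had 189.6, 266.0 and 269.2 CPM in WT and 221.0, 253.7 and 162.2 CPM in KO. Its groups overlapped, and the log2 fold change of -0.19 (SE 0.18) turned to 0.06 without replicate 4 and to -0.40 without replicate 1. Ndufa4l2, a relative of Ndufa4 known to be induced by hypoxia, was the untested subunit, with 2 counts in WT replicate 2, 1 count in KO replicate 1 and 0 in the other libraries.

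Taken by size of effect, a doubling or halving of subunit mRNA lies outside nearly all of the intervals. The lower bound of the 95% interval was above -1 for 36 of the 37 tested subunits, the exception being Ndufa13 (-1.04), and the highest upper bound was 0.36. The interval was wholly below 0 for 7 subunits and held 0 for 30, without adjustment for the number of genes.

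Assembly factors were read by the step at which they act. Ndufaf1 works with Ecsit and Acad9 in the complex that builds the membrane arm (ENSMUSG00000027305.9, chr2:119655446-119662827, minus strand). It had 38.5, 36.0 and 32.8 CPM in WT and 27.0, 26.4 and 24.3 CPM in KO. The groups were separate and tight, with a log2 fold change of -0.46 (SE 0.15, interval -0.81 to -0.12, adjusted p = 0.0998 with edgeR) that stayed between -0.50 and -0.44 as each replicate number was left out. Ndufaf3 and Ndufaf4 bind each other and the early matrix-arm module that will meet ubiquinone, yet their values lay on opposite sides of 0. Ndufaf4 (ENSMUSG00000028261.13, chr4:24898083-24905001, plus strand) had 39.2, 30.5 and 35.8 CPM in WT and 23.3, 26.4 and 20.6 CPM in KO. Its log2 fold change was -0.58 (SE 0.18, interval -0.98 to -0.19, adjusted p = 0.0800 with edgeR). Without the replicate number in the fit the adjusted p was 0.0448, and over 19 alternatives it ran from 0.0255 to 0.330. Between 75.1% and 80.9% of the Ndufaf4 counts in each library were assigned to a transcript annotated as a processed transcript and not as protein-coding, and over protein-coding transcripts alone the log2 fold change was -0.49. Ndufaf3 had 29.5, 29.5 and 32.7 CPM in WT and 35.1, 36.8 and 33.4 CPM in KO, every KO library above every WT library, with a log2 fold change of 0.20 (SE 0.16, interval -0.15 to 0.55, adjusted p = 0.511 with edgeR).

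Ndufaf5 and Ndufaf8 form a pair that modifies Ndufs7, Ndufaf7 is a methyltransferase of the matrix-arm module, and Ndufaf6 acts on the same early module. Ndufaf5 had 17.4, 12.0 and 14.0 CPM in WT and 12.1, 10.4 and 9.48 CPM in KO, overlapping by a single pair of libraries, with a log2 fold change of -0.43 (SE 0.20, interval -0.88 to 0.02). Ndufaf6 had 11.2, 10.1 and 11.5 CPM in WT and 8.0, 8.6 and 8.78 CPM in KO, which did not overlap, with a log2 fold change of -0.36 (SE 0.21, interval -0.84 to 0.11). These are low-abundance transcripts, and the smallest count of any assembly factor in a library was 85. Ndufaf7 had 74.2, 41.9 and 46.0 CPM in WT and 40.5, 46.6 and 39.5 CPM in KO. WT replicate 1 was far above the other controls, and the log2 fold change of -0.31 (SE 0.19) was -0.03 without replicate 1. Ndufaf8 had 16.2, 41.1 and 40.1 CPM in WT and 30.5, 39.7 and 33.6 CPM in KO, and its log2 fold change of 0.17 (SE 0.22) was -0.15 without replicate 1. Ndufaf2, a late factor that resembles the subunit Ndufa12, had 11.0, 15.1 and 15.3 CPM in WT and 14.1, 14.4 and 13.9 CPM in KO, and its log2 fold change of 0.04 (SE 0.20) was -0.10 without replicate 1. The sign of Ndufaf2 and Ndufaf8 thus turned without the libraries numbered 1, and without replicate 1 the fitted value was below 0 for 7 of the 8 assembly factors.

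Per length, subunit transcripts were abundant. In WT the mean of 3 libraries ran from 47.8 TPM (Ndufa11) to 989 TPM (Ndufa3) with a median of 261 TPM over the 37 tested subunits, and the KO median was 225 TPM. Ndufa3 (989 ± 145 TPM in WT, 880 ± 61.0 in KO), Ndufa1 (801 ± 125 and 808 ± 131) and Ndufa4 (784 ± 122 and 720 ± 155, SD, n = 3) were the highest in the set. Ndufa3 lay above Ndufa1 by more than either SD in WT but not in KO, and Ndufa1 and Ndufa4 did not differ beyond their SDs in either genotype. In CPM, Ndufa3 had 147.5, 188.5 and 179.7 in WT and 136.4, 159.0 and 138.9 in KO (log2 fold change -0.24, SE 0.13), and Ndufa1 had 146.2, 178.3 and 179.2 in WT and 126.6, 180.3 and 171.3 in KO (log2 fold change -0.08, SE 0.13). Both overlapped between genotypes. Assembly factors were scarcer, at 18.7 to 121 TPM in WT with a median of 33.9 TPM, and 27.3 TPM in KO. The order of the subunits by level was much the same in both genotypes (Spearman rho 0.95 over 37 genes, a description since these genes share the same 6 libraries), and the KO mean TPM was below the WT mean for 32 of the 37.

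**Figure D3:**
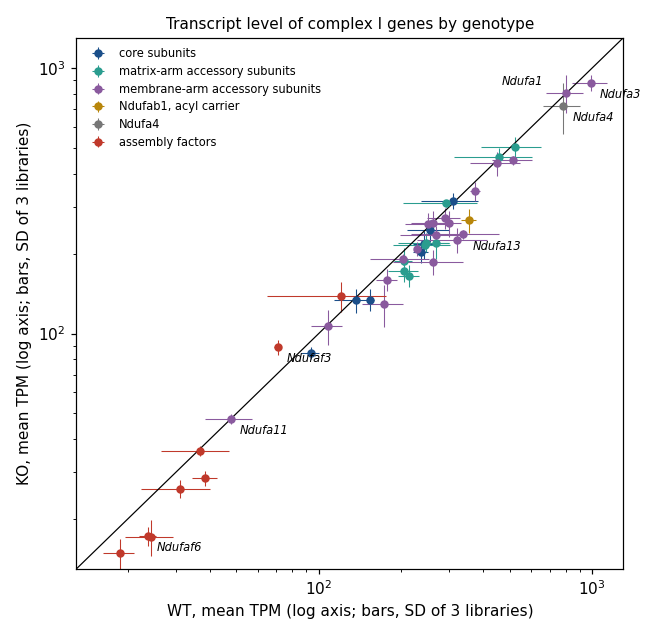
Mean TPM of each tested complex I gene in KO against WT libraries, both axes logarithmic, with SDs of 3 libraries as bars and the line of equality. Points run along the line over the range from 18.7 TPM (Ndufaf5) to 989 TPM (Ndufa3), with 32 of 37 subunits below it.

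The 3 KO libraries were also set against the WT library of the same number. The median log2 ratio over the 37 subunits was -0.10 for replicate 1, with 23 subunits lower, -0.16 for replicate 2, with 34 lower, and -0.37 for replicate 4, with 37 lower. Over all tested genes the medians were 0.06, 0.002 and -0.005, and the share of genes lower in each comparison was not counted. Among the subunits, replicate 1 was the widest, from -1.25 to 0.46. In all 3 comparisons 21 subunits were lower, as were 3277 of the 15474 tested genes. KO replicate 4 was the lowest KO library for 20 subunits and KO replicate 2 the highest for 27. WT replicate 1 was the lowest WT library for 22 subunits and the highest for 11. All KO libraries were below both deeper WT libraries for 33 of the 37 subunits, but the share of all genes with this arrangement was not counted. With WT replicate 1 included the count was 15 subunits, where 15.1% of all genes showed such a separation. Across subunits the fitted log2 fold change ran against the deviation of WT replicate 1 from the other controls (Spearman rho -0.71, n = 37), a relation between quantities that both contain WT replicate 1. Without replicate 1 the subunit median was -0.29 with 37 of 37 below 0, and without replicate 4 it was -0.17 with 31 of 37. The assembly factors had medians of -0.48, -0.13 and -0.31 in replicates 1, 2 and 4.

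**Figure D4:**
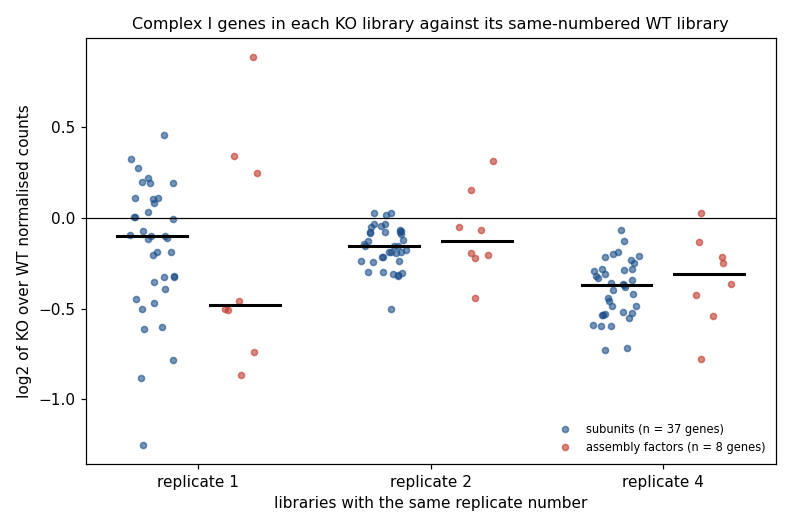
Log2 ratio of normalised counts, KO over WT, for each tested complex I gene within the libraries that share a replicate number. Points are genes (37 subunits, 8 assembly factors) and black bars are medians, which for subunits were -0.10, -0.16 and -0.37. The subunits scatter widely in replicate 1, which holds the shallow WT library, and lie wholly below 0 in replicate 4.

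Transcript length moved with the result. Subunit mRNAs were short, with a median mean length of 768 bases against 2639 bases over all tested genes, and across all tested genes the fitted log2 fold change rose with length (Spearman rho 0.14, genes sharing 6 libraries). Within the subunits the relation had the opposite sign (rho -0.22, n = 37). When a smooth trend on length was removed from the counts, the subunit median moved to -0.10 and the assembly factor median was -0.26 with 5 of 8 below 0. The core subunit Ndufs7 (0.06) and the abundant Ndufa1 (0.06) then lay above 0, and Ndufa13 (-0.49) and Ndufaf4 (-0.58) were still the lowest of their classes. Effective-length offsets adjust each gene only for differences in its own effective length between libraries. They do not remove a trend across genes of different length. With these offsets the subunit median was -0.22 with 36 of 37 below 0, and the assembly factor median was -0.35 with 6 of 8. Removing a trend on GC content instead gave a subunit median of -0.26 with 37 of 37 below 0.

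**Figure D5:**
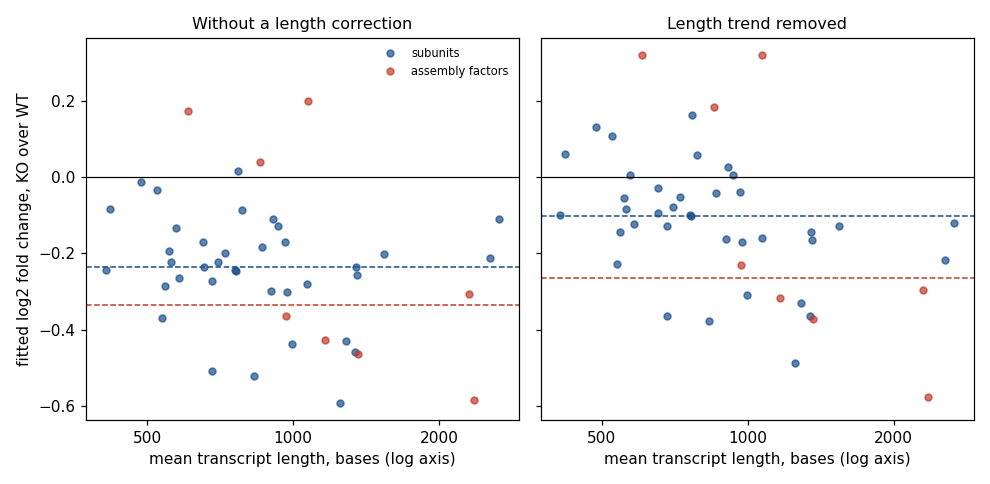
Fitted log2 fold change, KO over WT, of the tested complex I genes against mean transcript length (log axis), before and after a length trend over all genes was removed. Dashed lines are class medians, which move from -0.24 to -0.10 for the subunits and from -0.33 to -0.26 for the assembly factors.

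For some members most counts belonged to transcripts whose annotated type is other than protein-coding (retained introns, processed transcripts, or targets of nonsense-mediated decay, which carry a coding sequence). This was so for 5 of the 37 tested subunits and for Ndufaf4, and Ndufa3 was among them with 27.3% of its counts on protein-coding transcripts and most of the others on a transcript annotated for nonsense-mediated decay. In Ndufa10, an accessory subunit of the membrane arm chosen after its values were seen, the protein-coding transcript held 11.0% of the counts in WT replicate 1 and 24.9% to 37.9% in the other libraries. The log2 fold change of Ndufa10 was -0.43 over all transcripts (SE 0.15, adjusted p = 0.124 with edgeR) and -0.26 without replicate 1. Over protein-coding transcripts alone it was 0.06 (adjusted p = 0.930 with edgeR). With protein-coding transcripts only, the subunit median was -0.23 and the assembly factor median -0.32.

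The core subunits of the membrane arm, encoded by mitochondrial DNA, were not among the members but belong to the same enzyme. All 7 had fitted values below 0 (48.5% of all genes), with a median of -0.45. Their median log2 ratios were -0.46, -0.18 and -1.08 in replicates 1, 2 and 4. Every KO library was below every WT library for 2 of the 7 (15.1% of all genes). Of these genes mt-Nd5, which forms the outermost proton channel, passed an adjusted p of 0.05, where 3.38% of all genes were lower by this rule. It had 425.0, 339.4 and 436.7 CPM in WT and 189.5, 269.2 and 215.7 CPM in KO, separate groups with a log2 fold change of -0.84 (SE 0.18, adjusted p = 0.0202 with edgeR's quasi-likelihood test). Without replicate 1 and without replicate 4 the adjusted p was 0.0948 and 0.0640, and over 19 alternatives it ran from 0.000347 to 0.0948. mt-Nd4, another proton channel, had 556.8, 638.5 and 902.6 CPM in WT and 404.1, 565.3 and 421.4 CPM in KO, which overlapped (log2 fold change -0.58, SE 0.18, adjusted p = 0.0859 with edgeR). Mitochondrial genes together made up 1.16% to 1.61% of WT counts and 0.829% to 1.10% of KO counts. As a share of the counts without them, the subunits held 0.456% ± 0.0322 in WT and 0.384% ± 0.0280 in KO (SD, n = 3).

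Of 13 further assembly factors outside the Ndufaf names, 11 had fitted values below 0 (48.5% of all genes) with a median of -0.25. An adjusted p of 0.05 with edgeR was passed by 0, where 3.38% of all genes were lower by this rule. Unadjusted p fell under 0.05 for 2, both lower, beside 10.2% of all genes in the lower direction. Ecsit, the partner of Ndufaf1, had 51.3, 54.2 and 54.1 CPM in WT and 36.3, 48.8 and 39.5 CPM in KO (log2 fold change -0.37, SE 0.15), and Tmem70, which helps to build the membrane arm and ATP synthase, had 58.6, 46.2 and 48.7 and 41.3, 43.3 and 36.0 CPM (log2 fold change -0.34, SE 0.15). Both sets of libraries were separate. Of the nuclear genes of complexes II to V, 44 were tested, with 38 below 0, a median of -0.26 and 22 with every KO library below every WT library (15.1% of all genes). In this group 2 passed an adjusted p of 0.05, where 3.38% of all genes were lower by this rule, Uqcr10 of complex III (log2 fold change -0.66, SE 0.13, adjusted p = 0.0178) and Atp5g2 of ATP synthase (log2 fold change -0.57, SE 0.14, adjusted p = 0.0436), both with edgeR. Over 19 alternatives these adjusted p-values ran from 0.000222 to 0.0867 and from 0.00707 to 0.249.

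Regulators of respiratory gene expression were taken as a list of 9. Nrf1 ran from 100.4 to 112.4 CPM in WT and from 101.3 to 118.8 CPM in KO, and 6 of the 9 had fitted values below 0 (48.5% of all genes). An adjusted p of 0.05 was passed by 2, both lower, where 3.38% of all genes were lower by this rule. Ppargc1b, a coactivator of respiratory genes, had 7.41, 8.44 and 6.95 CPM in WT and 3.52, 3.48 and 3.79 CPM in KO (log2 fold change -1.07, SE 0.25, adjusted p = 0.0335 with edgeR). Pprc1, a related coactivator, had 48.5, 43.2 and 32.9 CPM in WT and 25.5, 19.1 and 28.3 CPM in KO (log2 fold change -0.77, SE 0.20, adjusted p = 0.0473 with edgeR). Both were separate between genotypes, and both missed an adjusted p of 0.05 without replicate 1 (0.0811 and 0.176, within ranges of 0.00127 to 0.177 and 0.00717 to 0.190 over 19 alternatives).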

How the data were processed

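RNA of sorted bone marrow CD27SP NK cells (3 WT and 3 KO libraries) was prepared by the authors with a low-input poly(A) kit and read as single ends. Per the labels' processing notes the tools include Salmon and the build is GRCh38, although the transcript identifiers are those of mouse. The deposited tables give, for each transcript, an estimated count and a TPM value, with length and effective length, in the column layout of kallisto, and no version is given in the sources used here. Estimated counts were summed per gene symbol with GENCODE M21 (GRCm38), 100239 of 100583 transcripts matching, and rounded. Unmatched transcripts held 0.129% to 0.169% of counts. Genes were filtered with filterByExpr, scaled by TMM and tested with edgeR 4.0.16 (R 4.3.3) by the quasi-likelihood test with genotype and replicate number as terms, Benjamini-Hochberg adjusted over 15474 genes. Fold changes are KO over WT. DESeq2 1.42.0, limma-trend (limma 3.58.1), other scalings and filters, length and GC corrections and leaving out replicates were alternatives. TPM values were used as deposited. Totals ran from 8101219 to 64962491 counts, but libraries of a genotype differed by far more than sampling noise, the deep ones included (chi-square per degree of freedom 36.5 to 91.9), so the spread between libraries sets the precision. The scripts were tested on simulated data. The replicate number stood in the model because the study's results call the comparison paired. Named genes were Myc, core subunits, the assembly factors, Ndufa4, Ndufa4l2, Ndufab1, the 5 members with the lowest and the 5 with the highest fold change, the 3 with the highest TPM, and the 2 with the smallest p of each non-member list. Some values are not reported here. Members and lists were chosen with earlier results of these data known. Promoters were taken from RefSeq (GRCm38.p6).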

Additional observations from a re-analysis of the deposited data

How the results depend on the processing

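The medians of subunits and assembly factors stayed below 0 under every alternative run (-0.10 to -0.29 and -0.23 to -0.44), no named gene with a call changed direction, and 0 members passed the stricter threshold under any of them. The cause of the changes below was not tested. Counts of lower subunits at an adjusted p of 0.05 were 4 with DESeq2 (5.81% of all genes lower), 2 without a filter (3.61%), 2 with a GC trend removed and no block (4.88%), and 0 to 1 as replicates were left out. Assembly factors gave 2 with DESeq2 and 1 with a length trend removed and no block (4.21%). Without the replicate block the counts were 1 subunit (Ndufab1) and 1 assembly factor (Ndufaf4), and 691 in place of 523 genes lower (4.47%). The difference in subunit share, KO minus WT, was -0.069 percentage points of counts and -0.111 of TPM. Replicate numbers were not shown to pair the libraries, since the deviations of same-numbered libraries correlated at -0.005, -0.067 and 0.084, and 2 of 6 libraries correlated best with their own number. Over all genes, the stricter threshold gave 135 lower and 198 higher as reported, 548 and 645 with DESeq2, 25 and 49 with library size only, 8 and 24 with effective-length offsets (71 and 88 without the block), 378 and 524 without a filter, 51 and 85 on protein-coding transcripts, 72 lower with a length trend removed, 203 lower with a GC trend removed and no block, and 10 to 114 lower and 49 to 162 higher as each replicate number was left out, or 113 higher without WT replicate 1 and the block. At an adjusted p of 0.05, 899 were lower and 1060 higher with DESeq2, 278 and 402 with effective-length offsets, and 266 to 405 and 384 to 473 as replicates were left out. Single named genes gave 608 alternative values, of which 541 kept direction and side of the threshold, 27 changed sign without a call, 26 lost and 14 gained an adjusted p under 0.05. WT replicate 1 had the lowest total, 8101219 counts, and its part in the spread between libraries was not tested.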
